A study of Mus musculus with 40 samples.

Results

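The cell type difference described here is that between ES-motor neurons and ES-astrocytes which had been cultured together after the ES-astrocytes met an inflammatory stimulus. All 16 stimulated ES-motor neuron samples and all 16 stimulated ES-astrocyte samples were used, which is 32 of the 40 samples of the study, and the 8 control samples were left out of this comparison. Both cell types were derived from mouse embryonic stem cells of a non-commercial line made from mice known as B6.Cg-Tg(Hlxb9-GFP)1Tmj/J, in which the promoter of Hlxb9 (Hb9, the gene Mnx1) drives green fluorescent protein, and every sample carries this transgene. ES-astrocytes received forskolin, an activator of adenylyl cyclase, and then for 24 h one of 4 stimuli, namely il1a+tnfa, c1q+c5, il1b+il6 or tgfb2. Sorted fluorescent ES-motor neurons were then plated on them, and after the co-culture both cell types were sorted again into samples of about 200 cells. Each stimulus was given in 4 biological replicates (A to D), so that each of the 8 groups holds 4 samples. According to the study's methods a replicate is a separate vial of cells of one line, so that the p-values below measure the spread between such vials and sorted samples. The stimulus was given to the ES-astrocytes before the ES-motor neurons were added, and the ES-motor neurons met it only through the culture they were plated into.

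Motor neurons of the brainstem and spinal cord leave the cell cycle, are specified by homeodomain factors such as Mnx1 and Isl1, release acetylcholine and extend long axons built on neurofilaments. Astrocytes descend from radial glia, take up glutamate, secrete extracellular matrix and can divide again, and inflammatory factors such as interleukin 1 and tumour necrosis factor move them towards a reactive state with expression of acute phase proteins and chemokines. A culture grown from neural progenitors can hold, beside astrocyte-like cells, dividing progenitors and neurons of other types.

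Expression was read as counts of sequencing reads per gene and is given as CPM, the count scaled to a common library total, on library sizes scaled by the trimmed mean of M values. Differences are log2 fold changes of ES-motor neurons over ES-astrocytes with stimulus as a covariate (edgeR quasi-likelihood test), so that a negative value is a lower level in ES-motor neurons. The SE beside a log2 difference is the size of that difference divided by the square root of the F statistic of its test. It therefore carries the same information as the p-value and is not a separate estimate of spread. For genes with few counts in a cell type, it may not cover the uncertainty of the fold. Calls needed both a p-value of 0.05 or less after Benjamini-Hochberg adjustment and a log2 difference beyond 1 in either direction. Where a cell type had at most 3 counts of a gene over its 16 samples, the fold is given from summed counts, as a lower bound or with a counting interval, and deep samples weigh most in it. The totals ran from 6557 to 14329617 counts (median 796030) in ES-motor neurons and from 1510823 to 16054290 (median 4413882.5) in ES-astrocytes. Of the 32 samples, 7 fell under 20% of the median total, and these were all ES-motor neurons (c1q+c5 A, il1a+tnfa A, C and D, il1b+il6 B and D, tgfb2 A). In the shallowest, c1q+c5 A, a single count is worth 70.9 CPM, so that 70.9 CPM as the highest value of a gene in ES-motor neurons is 1 count in that sample. The second index primer differed between the cell types in every sample, so that index and cell type cannot be told apart. The control and il1a+tnfa samples were on one plate index and the other 3 stimuli on another.

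The labelled cell types were checked against marker lists. The 9 motor neuron markers summed to 935 to 4978 CPM in the ES-motor neuron samples (median 1307) and to 133 to 420 CPM in ES-astrocytes (median 269), without overlap. Mnx1, whose promoter was used in the sort, holds a large part of this sum, and without it the other 8 summed to 283 to 1008 CPM (median 684) in ES-motor neurons and to 133 to 418 CPM (median 269) in ES-astrocytes, with 2 ES-motor neuron samples not above the highest ES-astrocyte sample. The 14 markers of astrocytes and radial glia summed to 1282 to 4206 CPM in ES-astrocytes (median 2409) and to 70.9 to 1225 CPM in ES-motor neurons (median 797). Gfap, Aqp4 and Aldh1l1, which define mature astrocytes, had no count in any of the 32 samples, which allows up to 0.0338 CPM over the 16 ES-astrocyte samples. The ES-astrocyte label itself comes from the culture and the sort. Markers that were higher in ES-astrocytes included genes shared with radial glia, such as Fabp7, Slc1a3 and Ednrb, and also Slc1a2, which the study counts as a mature gene. Of the same 14 markers, Sox9 was higher in ES-motor neurons, with mean levels of 271 CPM there and 77.0 CPM in ES-astrocytes. Vim was not called, at mean levels of 466 and 541 CPM in the same order. For its ES-astrocyte cultures the study also reported staining of the proteins GFAP, AQP4 and GLT-1, which RNA counts do not measure. Of the 11 general neuron markers, all were counted in each of the 16 ES-astrocyte samples, where they summed to 3075 to 6498 CPM beside 6307 to 25405 CPM in ES-motor neurons. In samples of many cells, fewer cells of a type and less RNA per cell cannot be told apart.

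Over the 4 stimuli, 1536 of 12507 tested genes were called (12.3%). ES-motor neurons had the higher level in 434 (3.47%) and the lower level in 1102 (8.81%), and 3058 genes had an unadjusted p under 0.05. The median log2 difference of all tested genes was -0.11. Over the same genes this median was -0.18 with DESeq2, -0.23 with RLE scaling and 0.33 with limma-voom, and the split turned with limma-voom, which called 1556 genes higher and 751 lower. Without the 7 shallow samples 1257 genes were called, 429 higher and 828 lower, and 1071 of them were among the 1536. Genes with a low level in ES-motor neurons often had no count there at all, which was so for 175 of the called genes, whereas 10 had no count in ES-astrocytes. The filter on low counts keeps a gene that is counted in one cell type alone, so that the counts of list members below describe the lists and do not weigh against a chance level. For 16 genes every ES-motor neuron sample was above every ES-astrocyte sample (0.128% of tested genes), and for 108 every one was below (0.864%).

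Mnx1 (ENSMUSG00000001566, chr5:29473034-29478470), the homeobox factor whose promoter drives the sorted fluorescent protein, was far higher in ES-motor neurons. Its level was 324 to 4101 CPM (median 644) in ES-motor neurons and 0 to 18.9 CPM (median 1.33) in ES-astrocytes. All ES-motor neuron samples were above all ES-astrocyte samples, with a log2 difference of 9.24 ± 0.77 (SE, adjusted p = 3.38e-11). Since the sort used the promoter of this gene, its difference describes the sort. Isl1, a LIM homeodomain factor of motor neurons, stood at 0 to 403 CPM (median 225) in ES-motor neurons and 1.61 to 66.4 CPM (median 16.7) in ES-astrocytes. The groups overlapped through the shallowest ES-motor neuron sample, which had no count, and the log2 difference was 3.37 ± 0.37 (SE, adjusted p = 2.55e-09). Isl2, its close relative, and Esrrg, an orphan nuclear receptor of gamma motor neurons, were also higher, by 4.35 ± 1.06 (SE, adjusted p = 0.00252) and 3.32 ± 0.58 (SE, adjusted p = 2.81e-05). The coordinates here and below are those of GENCODE M21 on GRCm38, while a build for the counts was not given in the sources used here, and positions serve to identify each gene only.

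The list of 18 tested motor neuron transcription factors was divided, with 4 called higher (Mnx1, Isl1, Isl2, Esrrg) and 7 called lower, and its median of -0.64 turned to 0.25 with limma-voom. Nkx2-2 (at least 78.4-fold lower), which is expressed in ventral progenitors, was not counted in any of the 16 ES-motor neuron samples. Also called lower were the Onecut factors Onecut1 (-3.89 ± 0.53) and Onecut2 (-2.34 ± 0.27), the early neuronal factors Ebf1 (-2.10 ± 0.25) and Ebf2 (-2.63 ± 0.31), and the proneural gene Neurog2 (-2.69 ± 0.93). Nkx6-1, a factor of ventral progenitors and of some motor neurons, was lower as well, at 0 to 73.4 CPM (median 47.0) in ES-motor neurons against 57.4 to 465 CPM (median 143) in ES-astrocytes (-1.82 ± 0.25 SE, adjusted p = 3.78e-07). Lhx3, which pairs with Isl1 in somatic motor neurons, was not called, at 0.26 ± 0.74 (SE, adjusted p = 0.9). Lhx4 passed the p threshold but not the fold threshold, at 0.84 ± 0.19 (SE, adjusted p = 0.00123).

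Genes of acetylcholine synthesis and storage were higher in ES-motor neurons. Slc5a7, the choline transporter of cholinergic terminals, was at 0 to 48.9 CPM (median 17.4) in ES-motor neurons and at 0 to 1.41 CPM (median 0, counted in 2 of 16) in ES-astrocytes, a log2 difference of 7.45 ± 0.89 (SE, adjusted p = 1.65e-08). Slc18a3, which loads acetylcholine into vesicles, differed by 5.45 ± 0.95 (SE, adjusted p = 4.75e-05), and Chat, the enzyme that makes it, by 6.12 ± 1.20 (SE, adjusted p = 1.85e-04). Slc10a4, a transporter of cholinergic vesicles, was at 57.6 to 587 CPM (median 196) in ES-motor neurons and at 0 to 24.5 CPM (median 2.35) in ES-astrocytes, and its groups did not overlap (5.51 ± 0.67 SE, adjusted p = 1.18e-07). Chat was counted in 12 of 16 ES-motor neuron samples, with a median of only 3.98 CPM. Against these, Chrna3 (-6.61 ± 0.96 SE, adjusted p = 1.12e-06) and Chrnb4 (447-fold, 95% counting interval 80.0 to 17671, lower), subunits of the ganglionic nicotinic receptor that are neighbours in the genome, and Calca (-7.20 ± 0.99 SE, adjusted p = 3.92e-07), which encodes calcitonin gene-related peptide, were lower in ES-motor neurons. Of the 13 tested genes of cholinergic transmission 4 were therefore called higher and 3 lower, with a median of 0.65.

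**Figure D1:**
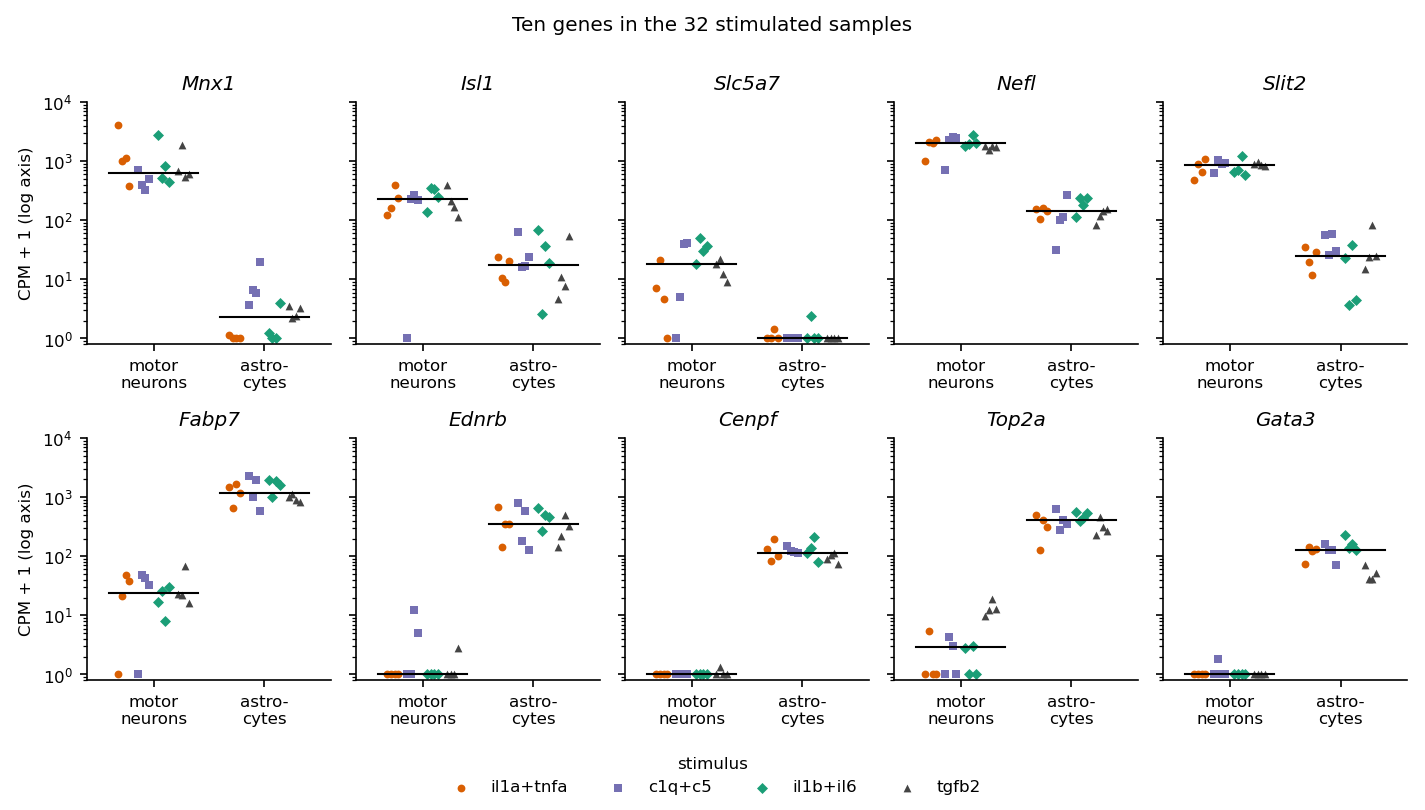
CPM + 1 (log axis) of 10 genes in each of the 32 stimulated samples, ES-motor neurons beside ES-astrocytes, where each point is a sample, colours give the stimulus and the line is the median of 16. Mnx1, Nefl and Slit2 have every ES-motor neuron sample above every ES-astrocyte sample, Isl1 and Slc5a7 overlap, and Fabp7, Ednrb, Cenpf, Top2a and Gata3 have every ES-motor neuron sample below.

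The neuronal cytoskeleton was higher in ES-motor neurons. Of 26 tested members 14 were called higher and none lower, with a median of 1.07 beside -0.11 for all genes, and between 10 and 15 were called higher under the other settings. The neurofilament light chain Nefl (ENSMUSG00000022055, chr14:68083863-68089095) was at 709 to 2761 CPM (median 2001) in ES-motor neurons and at 30.5 to 267 CPM (median 143) in ES-astrocytes, without overlap, and differed by 3.74 ± 0.22 (SE, adjusted p = 4.10e-17). Nefm, the medium chain, followed with 283 to 2062 CPM (median 903) in ES-motor neurons and 30.3 to 268 CPM (median 64.7) in ES-astrocytes (3.54 ± 0.27 SE, adjusted p = 1.25e-13). The exons of both genes overlap on opposite strands and the strand setting of the counting is not given in the sources used here, so that reads of the shared stretch cannot be told apart. Gap43, a protein of the growth cone, was at 2126 to 10860.3 CPM (median 6545) in ES-motor neurons and at 713 to 2136 CPM (median 1188) in ES-astrocytes, and the groups overlapped by a narrow margin (2.40 ± 0.19 SE, adjusted p = 2.61e-13). Ina (1.81 ± 0.18), the internexin of neuronal filaments, Stmn2 (1.78 ± 0.19), a regulator of axonal microtubules, and Mllt11 (1.12 ± 0.16) were higher too. Dclk1, a kinase on growing microtubules, differed by 2.10 ± 0.18 (SE, adjusted p = 4.58e-12).

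Of the 11 general neuron markers 5 were called higher (Nefl, Nefm, Gap43, Ina, Stmn2) and 6 were not called. Of these 6, Tubb3 (0.99 ± 0.29 SE, adjusted p = 0.0145), Snap25 (0.99 ± 0.19 SE, adjusted p = 1.58e-04), Elavl4 (0.60 ± 0.16 SE, adjusted p = 0.00767) and Dcx (0.76 ± 0.19 SE, adjusted p = 0.00393) passed the p threshold with log2 differences below 1, and Elavl3 (0.35 ± 0.22 SE, adjusted p = 0.366) and Syt1 (0.42 ± 0.40 SE, adjusted p = 0.615) did not pass it. Dcx, which marks young neurons, had a median of 997 CPM in ES-motor neurons and still 516 CPM in ES-astrocytes, where its lowest sample held 325 CPM. Of 27 tested genes of synaptic vesicles and release 3 were called higher and 1 lower (14.8%, beside 12.3% of all tested genes). The list median was 0.43, and limma-voom called 10 higher. Those higher were Scg2 (1.95 ± 0.37) and Resp18 (1.30 ± 0.37), both of the secretory granule, and Syt4 (1.06 ± 0.27), and the one lower was Cplx2 (-2.89 ± 0.44 SE, adjusted p = 2.93e-06), a complexin. Of 15 RNA-binding proteins of neurons, Elavl2 was called higher (1.79 ± 0.19 SE, adjusted p = 1.36e-09) and the splicing factor Nova1 lower (-1.76 ± 0.29 SE, adjusted p = 1.64e-05). These 2 calls are 13.3% of that list, near the 12.3% of all tested genes.

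The axon guidance ligands Slit2 and Slit3 were higher in ES-motor neurons, without overlap between the cell types. Slit2 (ENSMUSG00000031558, chr5:47983138-48307733) was at 484 to 1207 CPM (median 874) in ES-motor neurons and at 2.62 to 82.3 CPM (median 24.1) in ES-astrocytes, a log2 difference of 4.93 ± 0.31 (SE, adjusted p = 2.79e-16). Slit3 was at 56.8 to 399 CPM (median 127) in ES-motor neurons and at 0 to 25.3 CPM (median 8.44) in ES-astrocytes, also without overlap (4.15 ± 0.49 SE, adjusted p = 1.68e-08). Slit1, the third member, was low in both cell types, with medians of 0 and 0.662 CPM, and was not called (-1.47 ± 1.18 SE, adjusted p = 0.834). Of 42 tested genes of guidance and neuronal adhesion 13 were called higher and 7 lower, with a median of 0.70. Higher were the adhesion molecules Cntn2 (3.19 ± 0.43), Pcdh9 (3.23 ± 0.40) and Ncam1 (1.80 ± 0.18). Ncam1 had the highest level of these, at 779 to 3046 CPM (median 2123) in ES-motor neurons and 344 to 934 CPM (median 562) in ES-astrocytes. Lower were Plxna2 (-3.71 ± 0.39 SE, adjusted p = 8.03e-10), a semaphorin receptor without overlap between the groups, the midline attractant Ntn1 (-3.89 ± 0.60), Robo3 (-5.44 ± 1.16), a Slit receptor family member of commissural neurons, Pcdh17 (-5.09 ± 0.93), the ephrin receptors Epha3 (-3.13 ± 0.75) and Epha7 (-1.43 ± 0.38), and Cdh20, which had no count in ES-motor neurons and was at least 90.0-fold lower. Reln, the glycoprotein that guides migrating neurons, had 1 count in ES-motor neurons and was 255-fold (95% counting interval 45.6 to 10092) lower.

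Of 17 tested ion channel genes 6 were called higher and 1 lower, with a median of 1.34. The sodium channel Scn9a was at 0 to 43.6 CPM (median 11.4) in ES-motor neurons and at 0 to 2.19 CPM (median 0, counted in 3 of 16) in ES-astrocytes (5.87 ± 0.96 SE, adjusted p = 9.91e-06), and Scn2a at 0 to 293 CPM (median 135) in ES-motor neurons and 7.71 to 108 CPM (median 23.7) in ES-astrocytes (2.24 ± 0.37 SE, adjusted p = 1.22e-05). Both overlapped between the cell types, since 3 ES-motor neuron samples for Scn9a and 4 for Scn2a were not above the highest ES-astrocyte sample. Cacna2d1 (1.34 ± 0.32) and Cacna1b (1.35 ± 0.34), subunits of presynaptic calcium channels, were higher, and Cacna2d3 (-2.53 ± 0.77) was lower. Of 11 tested neurotransmitter receptor genes 1 was called higher and 1 lower (18.2%, beside 12.3% of all tested genes). The glycine receptor subunit Glra1, not counted in any ES-motor neuron sample, was at least 90.6-fold lower. Of 10 receptors for neurotrophic factors only Ret, the receptor of the GDNF family, was called, at 0 to 127 CPM (median 19.3) in ES-motor neurons and 0 to 10.7 CPM (median 0.299, counted in 8 of 16) in ES-astrocytes (3.62 ± 0.81 SE, adjusted p = 9.70e-04). This 1 call is 10% of the list, near the 12.3% of all tested genes.

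Further genes were singled out by rank of p or of fold. Nr2f1 and Nr2f2, orphan nuclear receptors that pattern the hindbrain and forebrain, were at medians of 250.4 and 3287 CPM in ES-motor neurons and 46.4 and 266 CPM in ES-astrocytes (2.41 ± 0.21 SE, adjusted p = 7.77e-12 and 3.64 ± 0.32 SE, adjusted p = 9.70e-12). The non-coding B130024G19Rik, whose exons overlap Nr2f2 on the opposite strand, was counted in all 16 ES-motor neuron samples and had 1 count in ES-astrocytes, 2008-fold (95% counting interval 359.6 to 79406) higher. Its reads and those of Nr2f2 cannot be told apart without the strand setting. Rbms3, an RNA-binding protein, was at 142 to 619 CPM (median 299.6) in ES-motor neurons and at 1.28 to 43.1 CPM (median 12.1) in ES-astrocytes, without overlap (4.46 ± 0.31 SE, adjusted p = 1.06e-14). Uts2b, which encodes a urotensin-related peptide, was at 36.3 to 178 CPM (median 78.7) in ES-motor neurons and at 0 to 2.56 CPM (median 0, counted in 3 of 16) in ES-astrocytes (8.08 ± 0.66 SE, adjusted p = 6.22e-13). Spock3, a proteoglycan, differed by 4.99 ± 0.63 (SE, adjusted p = 6.68e-08). Hs3st5, an enzyme of heparan sulfate, and the non-coding Gm29374 were not counted in any ES-astrocyte sample, 563-fold and 827-fold higher at the least, and the non-coding Gm42537, with 2 counts there, was 1213-fold (95% counting interval 335 to 10028) higher.

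Glial genes were lower in ES-motor neurons. Of 33 tested genes of astrocytes and radial glia (49 listed) 19 were called lower and 1 higher, with a median of -2.44, and limma-voom called 14 of them lower and the stricter filter 13 of the 24 that it kept. Fabp7 (ENSMUSG00000019874, chr10:57784881-57788450), the fatty acid binding protein of radial glia, was at 0 to 66.5 CPM (median 23.1) in ES-motor neurons and at 589 to 2251 CPM (median 1169) in ES-astrocytes. The groups lay far apart, and the log2 difference was -5.55 ± 0.31 (SE, adjusted p = 1.01e-17). Ednrb, the endothelin receptor of glia, was at 0 to 11.4 CPM (median 0, counted in 3 of 16) in ES-motor neurons and at 125 to 806 CPM (median 349.6) in ES-astrocytes (-8.80 ± 0.62 SE, adjusted p = 1.27e-14). Slc1a3, a glutamate transporter, had 3 counts, all in 1 ES-motor neuron sample, and was 414-fold (95% counting interval 142 to 2010.0) lower by summed counts and 24.0-fold lower by the mean CPM of the samples, whereas Slc1a2, the other glutamate transporter, was at 0 to 67.1 CPM (median 9.0) in ES-motor neurons and at 78.4 to 294 CPM (median 108) in ES-astrocytes, without overlap (-3.07 ± 0.47 SE, adjusted p = 3.13e-06). Fgfr3, a receptor on astrocyte precursors, was low in both cell types, with an ES-astrocyte median of 9.47 CPM (-4.31 ± 1.10 SE, adjusted p = 0.00397), and Cd44, an adhesion receptor of glial precursors, differed by -5.84 ± 0.63 (SE, adjusted p = 1.61e-09). The metallothioneins Mt1 (-5.10 ± 0.52) and Mt2 (-5.65 ± 0.56) and the matrix glycoprotein Sparc (-5.76 ± 0.52) were lower with no overlap. Mdk, a secreted growth factor of the embryonic neural tube that is on no list, was at 48.9 to 189.6 CPM (median 124) in ES-motor neurons and at 249 to 1776 CPM (median 1192) in ES-astrocytes, without overlap (-3.35 ± 0.21 SE, adjusted p = 3.01e-16).

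Sox9 ran against the list. This factor of glial fate was at 0 to 745 CPM (median 279) in ES-motor neurons and at 11.5 to 175 CPM (median 77.0) in ES-astrocytes, higher in ES-motor neurons by 1.82 ± 0.34 (SE, adjusted p = 1.19e-04), while Sox2, the factor of neural stem cells, was lower (-2.08 ± 0.71 SE, adjusted p = 0.0399). Vim, the intermediate filament of radial glia, did not separate the cell types, at 70.9 to 718 CPM (median 474) in ES-motor neurons and 337 to 734 CPM (median 529) in ES-astrocytes (-0.20 ± 0.16 SE, adjusted p = 0.536). Pax6, a factor of radial glia and of ventral progenitor domains, was lower at -3.07 ± 0.84 (SE, adjusted p = 0.00772), with a median of 23.4 CPM in ES-astrocytes and of 0 in the other cell type. Rfx4, a factor of the developing neural tube, was at 0 to 3.58 CPM (median 0, counted in 2 of 16) in ES-motor neurons and at 9.15 to 116 CPM (median 42.2) in ES-astrocytes (-7.98 ± 0.74 SE, adjusted p = 2.37e-11).

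**Figure D2:**
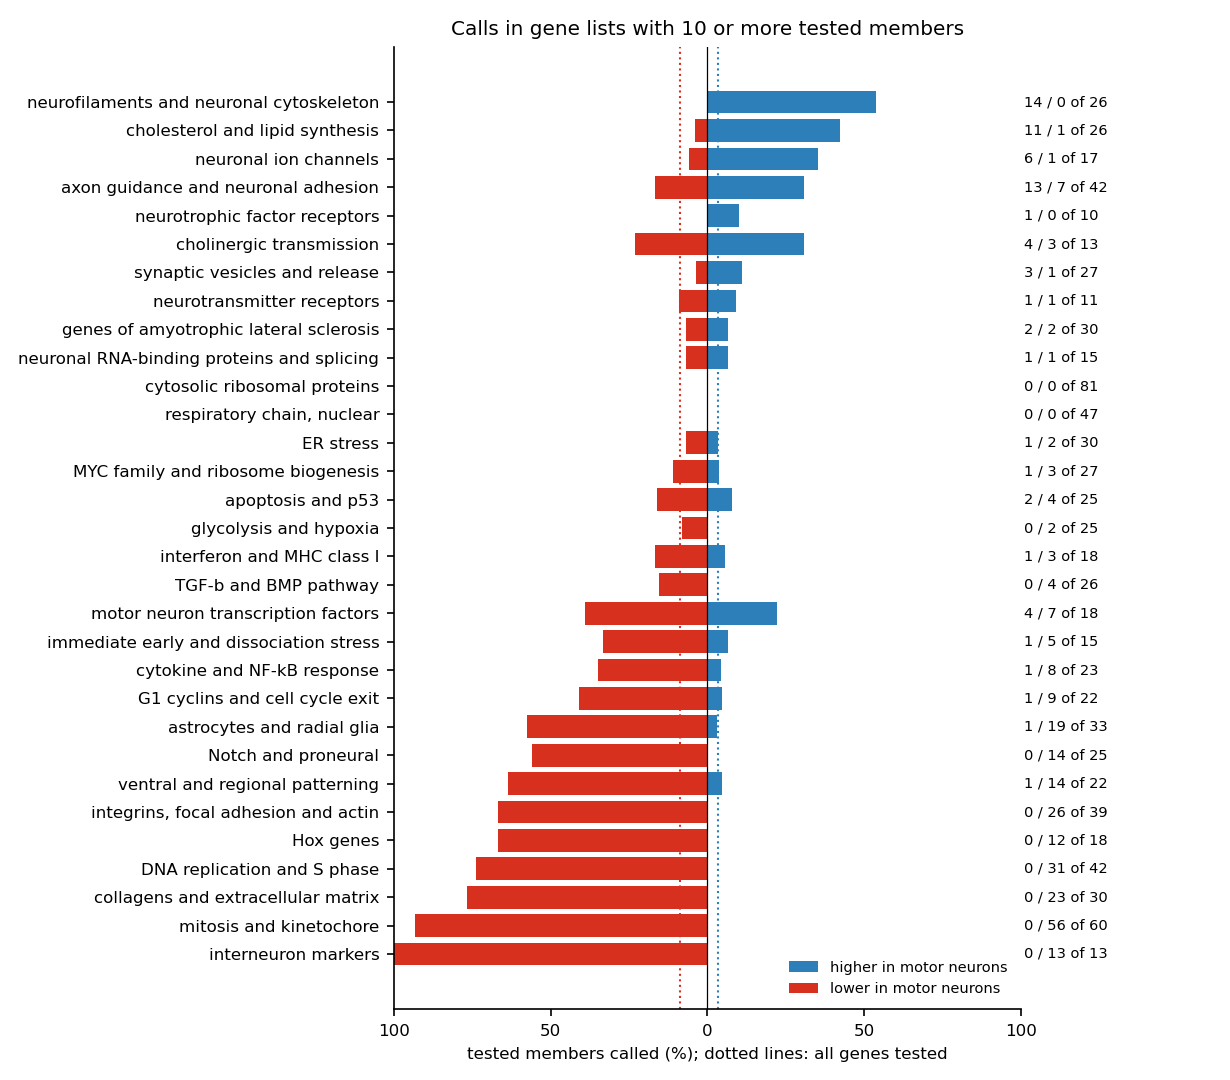
Percent of the tested members of each gene list with at least 10 tested members that were called higher or lower in stimulated ES-motor neurons, with the counts at the right and dotted lines at the shares of all 12507 genes (3.47% higher, 8.81% lower). Lists of mitosis, interneurons, matrix and S phase reach the highest shares called lower, and the neuronal cytoskeleton and cholesterol synthesis the highest shares called higher.

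Genes of cell division were almost uniformly lower in ES-motor neurons. Of 60 genes of mitosis and the kinetochore, all tested, 56 were called lower in ES-motor neurons and none higher, with a median of -5.95, and between 52 (of 55 kept by the stricter filter) and 58 were called under the other settings. The list summed to 195 to 388 CPM in ES-motor neurons (median 298) and to 3358 to 6191 CPM in ES-astrocytes (median 4891). Cenpf (ENSMUSG00000026605, chr1:189640606-189688086), a kinetochore protein of dividing cells, was at 0 to 0.356 CPM (median 0, counted in 1 of 16) in ES-motor neurons and at 72 to 209 CPM (median 114) in ES-astrocytes. It had 4 counts over all ES-motor neuron samples, all in 1 sample, and a log2 difference of -9.91 ± 0.46 (SE, adjusted p = 3.89e-20). Cdk1, the kinase that starts mitosis, was at 0 to 6.05 CPM (median 0, counted in 2 of 16) in ES-motor neurons and at 45.7 to 184 CPM (median 104) in ES-astrocytes (-9.37 ± 0.53 SE, adjusted p = 2.24e-17). Top2a, which untangles chromosomes, was at 0 to 18.2 CPM (median 1.92) in ES-motor neurons and at 128 to 644 CPM (median 406) in ES-astrocytes (-6.62 ± 0.41 SE, adjusted p = 2.65e-16), and Birc5 (-8.14 ± 0.49), Ccnb1 (-7.95 ± 0.52) and Pbk (-9.45 ± 0.63), which act in mitosis, were likewise separated without overlap. Kif11, a spindle motor, and Dlgap5, a spindle protein, were not counted in any ES-motor neuron sample, 909-fold and 525-fold lower at the least. The 4 members not called were Espl1, Kif20a, Plk4 and Pttg1, with log2 differences from -3.33 to -0.47.

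Genes of DNA replication differed less than those of mitosis. Of 42 tested, 31 were called lower and none higher, with a median of -2.43, and the list summed to 354 to 1019 CPM in ES-motor neurons and 2420 to 3962 CPM in ES-astrocytes. Rrm2, which supplies deoxynucleotides, was at 0 to 36.0 CPM (median 11.5) in ES-motor neurons and at 224 to 959 CPM (median 577) in ES-astrocytes (-5.72 ± 0.35 SE, adjusted p = 1.65e-16). Atad2, a chromatin protein of S phase, differed by -6.08 ± 0.71 (SE, adjusted p = 1.13e-08), and Mcm4, part of the replicative helicase, by -2.47 ± 0.30 (SE, adjusted p = 1.83e-08). Pcna, the sliding clamp, which is also used in repair, was still counted in every ES-motor neuron sample, at 24.5 to 139 CPM (median 77.3) in ES-motor neurons against 121 to 298 CPM (median 235) in ES-astrocytes (-1.39 ± 0.19 SE, adjusted p = 3.63e-07). Tyms, which makes thymidylate, was at 17.4 to 72.8 CPM (median 42.3) in ES-motor neurons and 17.7 to 195 CPM (median 138) in ES-astrocytes (-1.71 ± 0.24 SE, adjusted p = 7.14e-07). Of 22 genes of G1 and of cell cycle exit 9 were called lower and 1 higher. The D cyclins Ccnd1 and Ccnd2 were at medians of 4.18 and 5.26 CPM in ES-motor neurons and 269 and 883 CPM in ES-astrocytes (-5.90 ± 0.36 SE, adjusted p = 1.51e-16 and -6.85 ± 0.36 SE, adjusted p = 2.31e-18). Their kinase Cdk6 (-5.56 ± 0.45) and the antiproliferative Btg2 (-3.01 ± 0.37) were lower too, Cdk2, with 2 counts in ES-motor neurons, was 392-fold (95% counting interval 108 to 3238) lower, and Ccne2, its cyclin, differed by -2.39 ± 0.32. The non-coding Gm43126, whose exons overlap Ccnd2 on the opposite strand, moved with it (-7.54 ± 0.66), and the reads of both cannot be told apart. The member that was higher was Cdk5r1 (1.88 ± 0.29 SE, adjusted p = 4.11e-06), which activates the neuronal kinase Cdk5 rather than a kinase of division.

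The promoters of the leading genes of these lists are shown because genes of division are known to share short motifs near their start, among them the CCAAT box and the element TTTGAA that repressors of the cell cycle bind. The 250 bases before the annotated start are given 5′ to 3′ on the strand of the gene, from RefSeq on GRCm38.p6, with CCAAT and TTTGAA in capitals on either strand (ATTGG is CCAAT on the opposite strand). The first is Cenpf, minus strand of chr1:189688087-189688336, then Cdk1, minus strand of chr10:69352913-69353162, then Rrm2, plus strand of chr12:24708004-24708253, while Atad2 is named only.
Cenpf: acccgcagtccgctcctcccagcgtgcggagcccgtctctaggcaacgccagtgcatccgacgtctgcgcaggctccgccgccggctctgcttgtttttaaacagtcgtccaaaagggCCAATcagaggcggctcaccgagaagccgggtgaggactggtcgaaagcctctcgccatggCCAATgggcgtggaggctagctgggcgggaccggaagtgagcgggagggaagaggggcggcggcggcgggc
Cdk1: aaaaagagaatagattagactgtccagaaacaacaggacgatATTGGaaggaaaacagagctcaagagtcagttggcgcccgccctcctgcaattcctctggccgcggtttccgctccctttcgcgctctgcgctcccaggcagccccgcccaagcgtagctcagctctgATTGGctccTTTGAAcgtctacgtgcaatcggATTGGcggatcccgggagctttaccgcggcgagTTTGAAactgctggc
Rrm2: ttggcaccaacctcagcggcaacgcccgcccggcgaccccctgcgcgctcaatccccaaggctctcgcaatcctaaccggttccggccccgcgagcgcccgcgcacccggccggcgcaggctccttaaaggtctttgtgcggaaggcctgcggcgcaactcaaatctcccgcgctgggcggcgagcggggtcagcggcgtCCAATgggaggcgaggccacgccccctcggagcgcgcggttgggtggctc
Cenpf holds CCAAT at 132 to 128 and 71 to 67 bases before its start, Cdk1 holds it on the opposite strand at 208 to 204, 80 to 76 and 48 to 44 bases and TTTGAA at 71 to 66 and 15 to 10 bases, and Rrm2 holds CCAAT at 50 to 46 bases.
CCAAT was found on either strand in 34 of the 50 promoters available for the 60 mitosis genes (68%), in 22 of 35 for the 42 replication genes (62.9%) and in 34.5% of all 27025 promoters of this length. TTTGAA was found in 32% and 14.3% of these lists and in 16.3% of all promoters. The E2F-like letters TTTGGCG were found in 6%, 14.3% and 1.28%, and TTTCCCG in 6%, 14.3% and 2.82%. No 2 of the sites printed above overlap, and a match describes the sequence and not the binding of a factor.

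Matrix, adhesion and contractile genes formed the next group that was lower in ES-motor neurons. Of 30 tested genes of collagens and extracellular matrix (46 listed) 23 were called lower and none higher. Their median was -5.12, or -5.19 with genes of no count set to their bound, and DESeq2 and limma-voom called 14 and 10 of them lower and the stricter filter 9 of the 13 that it kept. Fn1, fibronectin, had 3 counts in ES-motor neurons and 41.0 to 162 CPM (median 64.2) in ES-astrocytes, 1212-fold (95% counting interval 415 to 5879) lower by summed counts and 18.1-fold lower by the mean CPM of the samples. Its groups overlapped only through the shallowest sample, where 1 count reached 70.9 CPM. Dcn, the proteoglycan decorin, was at 0 to 6.05 CPM (median 0, counted in 4 of 16) in ES-motor neurons and at 35.3 to 445 CPM (median 135) in ES-astrocytes (-8.76 ± 0.56 SE, adjusted p = 5.41e-16). Col1a1, a fibrillar collagen, had 2 counts and was 398-fold (95% counting interval 110.0 to 3288) lower, Lox, which crosslinks collagen, had none and was at least 324-fold lower, and Thbs1 differed by -5.65 ± 1.01. These were low genes in ES-astrocytes also, with medians of 4.40, 6.33 and 19.1 CPM.

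Of 39 tested genes of integrins, focal adhesion and actin 26 were called lower and none higher, with a median of -2.57 and between 22 and 26 under the other settings. Acta2, smooth muscle actin, was at 0 to 24.5 CPM (median 0.182, counted in 8 of 16) in ES-motor neurons and at 31.1 to 478 CPM (median 192) in ES-astrocytes (-6.80 ± 0.54 SE, adjusted p = 3.46e-13), and Cald1, which binds actin and myosin, at 0 to 78.4 CPM (median 13.9) in ES-motor neurons and 129 to 699.9 CPM (median 325) in ES-astrocytes (-4.52 ± 0.38 SE, adjusted p = 1.97e-12). Lgals1, a secreted lectin, differed by -4.14 ± 0.27 (SE, adjusted p = 1.66e-15), Anxa1, a membrane-binding annexin, by -6.54 ± 0.48 (SE, adjusted p = 5.55e-14), and Tpm1, a tropomyosin, by -2.57 ± 0.24 (SE, adjusted p = 1.92e-11). Sdc4, a syndecan of focal adhesions, was at 0 to 3.60 CPM (median 0, counted in 2 of 16) in ES-motor neurons and 0.148 to 678 CPM (median 156) in ES-astrocytes (-10.36 ± 0.76 SE, adjusted p = 4.94e-14). Its groups overlapped, since 1 ES-astrocyte sample held only 0.148 CPM. Ahnak, a scaffold protein under the membrane, had no count in ES-motor neurons and was at least 664-fold lower. All 5 tested genes of fibroblasts, pericytes and mesenchyme were called lower, with a summed level of 131 to 940 CPM in ES-astrocytes (median 399) against 0 to 24.5 CPM in ES-motor neurons (median 1.21). Among them, Prrx1 (-4.80 ± 1.21) marks limb and head mesenchyme and Col1a2 (at least 82.5-fold lower) is a collagen. The other called members, Acta2, Col1a1 and Dcn, and Col1a2 itself are also on the list of matrix or of adhesion and actin, so that the lists share them. This list moved with the matrix genes, and its part in their difference was not tested.

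Genes of progenitors and of other neurons were also lower. Gata3 (ENSMUSG00000015619, chr2:9857078-9890034), a factor of V2b interneurons and of hindbrain neurons, had the smallest p of the genes tested. It had 1 count over all ES-motor neuron samples, while its level was 39.9 to 226 CPM (median 127) in ES-astrocytes, a log2 difference of -10.85 ± 0.49 (SE, adjusted p = 2.59e-20) and 4410.2-fold (95% counting interval 791 to 174214) lower by summed counts. Exons of 9230102O04Rik on the same strand and of Gm13256 on the other overlap Gata3, so that their reads are uncertain. Of 13 tested interneuron genes (26 listed) all 13 were called lower, with a median of -7.05, or -6.50 with genes of no count at their bound, and the list summed to 218 to 676 CPM in ES-astrocytes (median 327) and 0 to 68.7 CPM in ES-motor neurons (median 20.1). Gata2 (-6.50 ± 0.83 SE, adjusted p = 7.05e-08) accompanied Gata3. Tal1 (at least 214-fold lower), which works with the Gata factors in V2b neurons, and Lhx5 (at least 143-fold lower), a factor of inhibitory interneurons, had no count in ES-motor neurons. Gad2, which makes GABA, had 2 counts there and was 292-fold (95% counting interval 80.5 to 2409.8) lower, and Slc17a6, the glutamate transporter of vesicles, had none, at least 158-fold lower. DESeq2 and limma-voom called 12 and 7 interneuron genes lower, the stricter filter called all 6 that it kept, and none was called higher. Interneuron genes were thus counted in the ES-astrocyte samples together with the general neuron markers, and the part of such cells in the differences of other genes was not tested.

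Of 25 tested genes of the Notch pathway and of proneural factors 14 were called lower and none higher, with a median of -2.45, while limma-voom called 10 lower and 2 higher. Notch1 was at 0 to 5.18 CPM (median 0, counted in 7 of 16) in ES-motor neurons and at 10.9 to 126 CPM (median 46.4) in ES-astrocytes (-6.05 ± 0.60 SE, adjusted p = 1.48e-10), and Notch2 at 0 to 70.9 CPM (median 10.6) in ES-motor neurons and 149 to 1288 CPM (median 437) in ES-astrocytes (-5.81 ± 0.48 SE, adjusted p = 1.50e-12). Both are receptors that keep progenitors undifferentiated, and their groups did not overlap. The proneural factors Neurod4 (-6.28 ± 0.58) and Insm1 (-3.26 ± 0.43), which act in newly born neurons, were lower. Neurod4 had a median of 91.7 CPM in ES-astrocytes and of 0 in ES-motor neurons.

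Of 22 tested genes of ventral and regional patterning 14 were called lower and 1 higher, with a median of -3.00. Foxa2, the factor of the floor plate, had no count in ES-motor neurons and 0.902 to 44.3 CPM (median 11.7) in ES-astrocytes, at least 194-fold lower. Gli3, which relays Sonic hedgehog signals, differed by -5.16 ± 0.97 (SE, adjusted p = 1.00e-04). Mab21l2, which is on no list and had no count in ES-motor neurons, was at least 656-fold lower, and its exons overlap Lrba. Lmx1a, a factor of the roof plate and of dopaminergic progenitors, ran the other way (3.43 ± 1.11 SE, adjusted p = 0.0285), at low levels with medians of 0.308 and 0 CPM, and was not called with DESeq2 or without the shallow samples.

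Hox genes, which set position along the hindbrain and spinal cord, were lower as a group but not absent. Of 39 Hox genes 18 were tested, all of paralog groups 1 to 8, of which 12 were called lower and none higher, with a median of -1.56. Paralog groups 9 to 13 together held few counts, at most 51 over a group of 16 samples for group 9 and at most 1 for each of groups 10 to 13, and none of these was tested. Hoxb5 was at 0 to 215 CPM (median 70.7) in ES-motor neurons and at 49.9 to 527 CPM (median 222) in ES-astrocytes (-1.57 ± 0.25 SE, adjusted p = 5.45e-06), and Hoxb4 at 0 to 100.2 CPM (median 19.8) in ES-motor neurons and 48.3 to 159 CPM (median 92.8) in ES-astrocytes (-2.29 ± 0.35 SE, adjusted p = 2.57e-06). Hoxc4 was lower too (-2.12 ± 0.45 SE, adjusted p = 5.47e-04), whereas Hoxa4 (-1.37 ± 0.62 SE, adjusted p = 0.147) and Hoxd4 (-1.51 ± 0.89 SE, adjusted p = 0.324) were not called. The more caudal Hoxb6 (-5.18 ± 0.84) and Hoxb8 (-5.10 ± 0.97) were all but uncounted in ES-motor neurons, with 30 and 8 counts. Limma-voom called 6 Hox genes lower, and no setting called any higher. Within stimuli 1, 5, 3 and 0 of the 18 were called lower after il1a+tnfa, c1q+c5, il1b+il6 and tgfb2. The list median after tgfb2 was -1.28. The mean Hox sum in ES-motor neurons was 262, 148, 258 and 764 CPM in the order of stimuli above. In ES-astrocytes it was 964, 649, 691 and 1322 CPM. The test of dependence on the stimulus, given below, called 0 Hox genes.

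Inflammatory genes were a smaller and less certain part of the difference. Of 23 tested genes of the cytokine and NF-kB response (52 listed) 8 were called lower in ES-motor neurons and 1 higher, with a median of -2.17. None of the 8 was called with DESeq2 or limma-voom, 1 was without the shallow samples and 2 with all 40 samples in the fit. The stricter filter kept 6 of the 23, none of them called lower. Over the 23 genes the median was -1.07 with DESeq2 and turned to 0.49 with limma-voom. Saa3, an acute phase protein of reactive astrocytes, was at 0 to 4.51 CPM (median 0, counted in 2 of 16) in ES-motor neurons and at 0 to 190.4 CPM (median 6.65, counted in 8 of 16) in ES-astrocytes (-4.90 ± 1.24 SE, adjusted p = 0.00374). Its ES-astrocyte mean was 92.9 ± 75.6 CPM (SD, n = 4) after il1a+tnfa, 34.3 ± 42.5 after il1b+il6, 3.32 ± 6.65 after c1q+c5 and no count after tgfb2, with SDs about as large as the means. Differences among stimuli within ES-astrocytes were not tested, and il1a+tnfa was on another plate index than the other 3. Ccl5, a chemokine, had no count in any of the 16 ES-motor neuron samples and was counted in 6 ES-astrocyte samples, at 46.7 ± 24.5 CPM after il1a+tnfa and 10.7 ± 15.9 after il1b+il6 and with no count after the other stimuli. Within these stimuli ES-motor neurons were lower by at least 15.7-fold after il1a+tnfa and 56.4-fold after il1b+il6, by counts summed over 4 samples. Ccl20 showed 29.9 ± 52.0 and 14.8 ± 10.6 CPM after the same stimuli, against 0 after c1q+c5 and 1.05 ± 2.09 after tgfb2. Ccl7 (-5.71 ± 1.55 SE, adjusted p = 0.00859) and C3 (-4.97 ± 1.37 SE, adjusted p = 0.00934), the central complement protein, had medians of 0 in both cell types. The sign of Ccl7, C3 and Ccl20 turned with limma-voom. The member that was higher was Il1rap (2.99 ± 0.88 SE, adjusted p = 0.0146), the shared chain of the interleukin 1 receptor, at a median of 13.5 CPM in ES-motor neurons and 0 in ES-astrocytes.

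**Figure D3:**
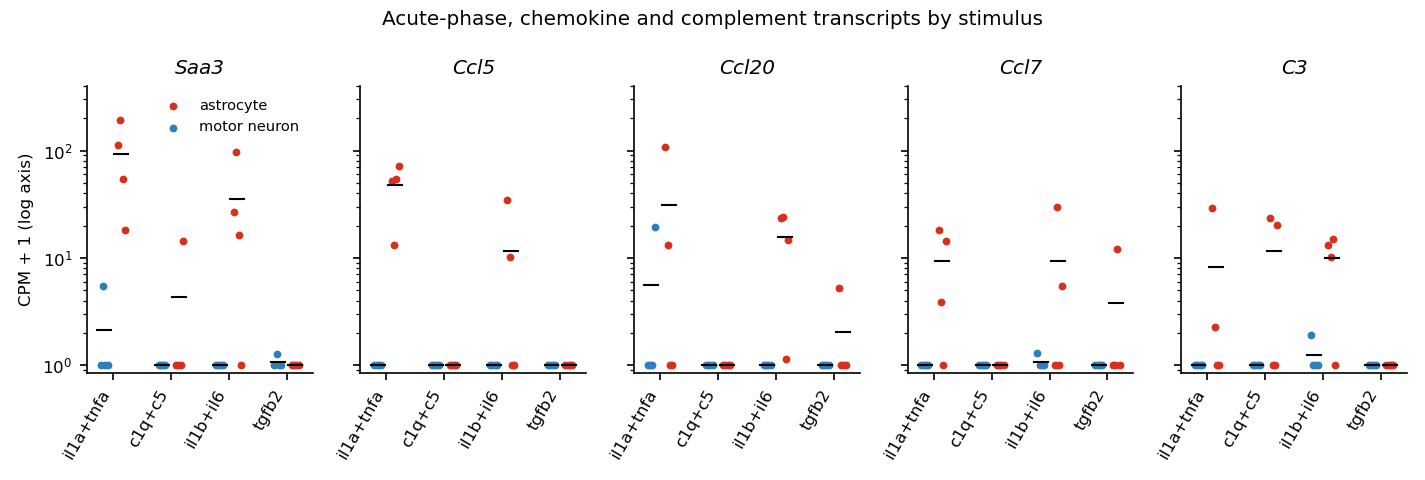
CPM of Saa3, Ccl5, Ccl20, Ccl7 and C3 by stimulus in both cell types, where each point is a sample and the line is the mean of 4. Saa3 and Ccl5 reach 190 and 70.1 CPM in ES-astrocytes after il1a+tnfa, are lower after il1b+il6, and stay at or near 0 in ES-motor neurons.

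Of 26 tested genes of the TGF-b and BMP pathway 4 were called lower and none higher (15.4%, beside 12.3% of all tested genes). The list median of -0.28 turned to 0.22 with limma-voom. The 4 were the ligands Tgfb2 (-4.04 ± 1.18), Tgfb3 (at least 76.5-fold lower) and Inhba (70.8-fold, 95% counting interval 24.1 to 344, lower) and the target Id3 (-1.32 ± 0.38). Of 18 interferon and MHC class I genes 3 were called lower and 1 higher, with a median of -0.24 that was 0.36 with limma-voom. Ifitm3, an antiviral membrane protein, was at 0 to 9.27 CPM (median 0, counted in 4 of 16) in ES-motor neurons and at 51.1 to 453 CPM (median 150.1) in ES-astrocytes (-7.35 ± 0.58 SE, adjusted p = 4.34e-13), Ifitm2, a close copy of it whose reads may be shared, differed by -2.35 ± 0.32, and B2m, the light chain of class I molecules, by -1.62 ± 0.32. Ifngr2, a chain of the interferon gamma receptor, was the one higher (1.25 ± 0.34). Of 8 complement genes 3 were called lower and 1 higher, with a median of -1.06 that turned to 0.78 with limma-voom. Beside C3 these were Megf10 (-6.88 ± 0.92 SE, adjusted p = 2.18e-07), a C1q receptor for engulfment, Serping1 (-1.90 ± 0.56), the C1 inhibitor, and Cd59a (3.13 ± 0.84), which blocks the membrane attack complex and was the one higher, at medians of 25.9 and 0.416 CPM.

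Cholesterol synthesis was the one metabolic list with many calls in favour of ES-motor neurons. Of 26 tested genes 11 were called higher and 1 lower, with a median of 1.10 and between 8 and 12 called higher under the other settings, and the list summed to 2622 to 15234 CPM in ES-motor neurons (median 9388) and to 1972 to 5788 CPM in ES-astrocytes (median 3123). Hmgcs1, at an early step of the pathway, was at 354 to 2950.1 CPM (median 1588) in ES-motor neurons and at 173 to 588 CPM (median 367) in ES-astrocytes (2.08 ± 0.23 SE, adjusted p = 3.03e-09). The groups overlapped. Fdft1 (1.64 ± 0.24), Fdps (1.26 ± 0.21), Acly (1.05 ± 0.18) and Insig1 (1.54 ± 0.32), a sterol sensor, were higher as well. Exons of Gm48342 overlap Hmgcs1 on the opposite strand. Abca1, which exports cholesterol, had no count in ES-motor neurons and was counted in 6 ES-astrocyte samples, at least 28.8-fold lower, and its sign turned with limma-voom.

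General lists of the cell held no calls or shares of calls near that of all tested genes (12.3%). These shares were 14.8% for the MYC family and ribosome biogenesis, 10% for ER stress and 8% for glycolysis and hypoxia. None of 81 tested genes of cytosolic ribosomal proteins, none of 47 nuclear genes of the respiratory chain and none of 7 mitochondrially encoded genes was called, with medians of -0.30, 0.10 and 0.20. DESeq2 and RLE scaling each called 2 ribosomal genes lower and limma-voom 1. Rps2 (-0.89 ± 0.22 SE, adjusted p = 0.0028) and Rplp0 (-0.65 ± 0.17 SE, adjusted p = 0.00488) passed the p threshold at small folds, as did Cox5a (0.65 ± 0.16 SE, adjusted p = 0.00267), and mt-Cytb (0.27 ± 0.21 SE, adjusted p = 0.495) and mt-Co1 (0.13 ± 0.17 SE, adjusted p = 0.732) did not. Of 27 genes of the MYC family and ribosome biogenesis 3 were called lower and 1 higher, namely Mycn (1.70 ± 0.34 SE, adjusted p = 2.21e-04), with Odc1 (-1.71 ± 0.22 SE, adjusted p = 8.60e-08) among the lower and a median of -0.66. Npm1, a nucleolar protein, passed the p threshold alone (-0.74 ± 0.15 SE, adjusted p = 2.98e-04). Of 30 ER stress genes 2 were called lower and 1 higher, with a median of -0.20 that was 0.04 with limma-voom. The one higher was Asns (1.40 ± 0.23 SE, adjusted p = 1.08e-05), which makes asparagine, and Creld2 (-1.87 ± 0.45) was lower, while the chaperone genes Manf (-0.89 ± 0.17) and Hsp90b1 (-0.97 ± 0.19) stayed inside the fold threshold. Of 25 genes of glycolysis and hypoxia 2 were called lower, namely Hk2 (-4.20 ± 0.71 SE, adjusted p = 1.81e-05) and Egln3 (at least 105-fold lower), with a median of -0.02 that changed sign among the settings.

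Of 25 genes of apoptosis and p53 4 were called lower and 2 higher, with a median of -0.26. Fas, a death receptor, had 1 count in ES-motor neurons. It was 755-fold (95% counting interval 135 to 29855) lower by summed counts and 38.2-fold lower by the mean CPM of the samples. The p53 targets Cdkn1a (-1.89 ± 0.43) and Pmaip1 (-3.34 ± 0.77) were lower. Hrk (4.29 ± 1.11 SE, adjusted p = 0.0049), which promotes death of neurons deprived of trophic support, and Casp9 (2.08 ± 0.60 SE, adjusted p = 0.013), the initiator caspase, were higher. Of 15 immediate early genes, which respond to dissociation too, 5 were called lower and 1 higher, with a median of -0.11 that was 0.05 with limma-voom. Jun was the one higher, at 0 to 94.5 CPM (median 48.0) in ES-motor neurons and 0 to 27.1 CPM (median 4.28) in ES-astrocytes (2.76 ± 0.52 SE, adjusted p = 9.61e-05), and Dusp6 (-2.30 ± 0.38) and Egr1 (-5.67 ± 1.13) were lower. Of 30 genes of amyotrophic lateral sclerosis 2 were called higher and 2 lower, with a median of 0.05 that changed sign among the settings. This share of 13.3% was near the 12.3% of all tested genes. Beside Stmn2, Kif5a (1.51 ± 0.40 SE, adjusted p = 0.00546), a motor of axonal transport, was higher, and Ccnf (-5.95 ± 0.99) and Chchd10 (-1.68 ± 0.52), which were lower, while Sod1, the most abundant of them, was at 1842 to 10280.2 CPM (median 5049) in ES-motor neurons and 2392 to 13769.6 CPM (median 8845) in ES-astrocytes and was not called (-0.61 ± 0.25 SE, adjusted p = 0.102).

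Markers of further cell types were few. Of 16 listed genes of the oligodendrocyte lineage 5 were tested and 1 was called lower, namely Nkx2-2, and the list summed to 0 to 53.7 CPM in ES-motor neurons and 0 to 34.9 CPM in ES-astrocytes. Of 16 genes of microglia and macrophages 3 were tested and 1 was called lower. Of 12 genes of neural crest and Schwann cells 2 were tested and Ets1 was called lower (-6.82 ± 1.01), and of 15 genes of pluripotent cells 1 was tested, Sall4, which was lower, at 0 to 28.8 CPM (median 1.27) in ES-motor neurons and 4.38 to 153 CPM (median 34.5) in ES-astrocytes (-3.12 ± 0.54 SE, adjusted p = 2.51e-05). Of 10 genes of ependyma and choroid plexus only Dnah11, a dynein of motile cilia, was tested, and it was at least 63.6-fold lower, with a sign that turned with limma-voom. Of 12 endothelial genes 1 was tested and it was not called.

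Within each stimulus the same comparison rests on 4 samples of each cell type. Called were 227 genes after il1a+tnfa (1.81%), 299 after c1q+c5 (2.39%), 367 after il1b+il6 (2.93%) and 344 after tgfb2 (2.75%). Of the 583 genes called after at least 1 stimulus, 136 were called after all 4, 33 higher and 103 lower in ES-motor neurons, and none was called in opposite directions. Of the 1536 genes called over the 4 stimuli, 1448 had the same fitted sign after each (94.3%, beside 35.1% of all tested genes), and 1005 were called after no single stimulus. The fits within stimuli use the same samples that gave the 1536 calls. Agreement in sign therefore follows in part from the choice of these genes and is no separate support for them. Without the shallow samples the il1a+tnfa comparison, in which 1 ES-motor neuron sample then remained, fell to 25 calls and the il1b+il6 comparison to 204. Genes of mitosis were called lower in 31, 40, 37 and 39 of 60 cases after il1a+tnfa, c1q+c5, il1b+il6 and tgfb2, with medians from -7.74 to -5.75. Fabp7 was at -5.59, -5.24, -6.78 and -4.93 in the same order, Nefl at 3.71, 3.98, 3.49 and 3.77, and Slit2 at 5.05, 4.44, 5.57 and 4.64. Of the cytokine list, 1 gene was called higher after il1a+tnfa and 1 lower after il1b+il6, and its ES-astrocyte sum was highest after il1a+tnfa, at 630 ± 168 CPM (SD, n = 4) against 318 ± 34.7 after tgfb2.

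**Figure D4:**
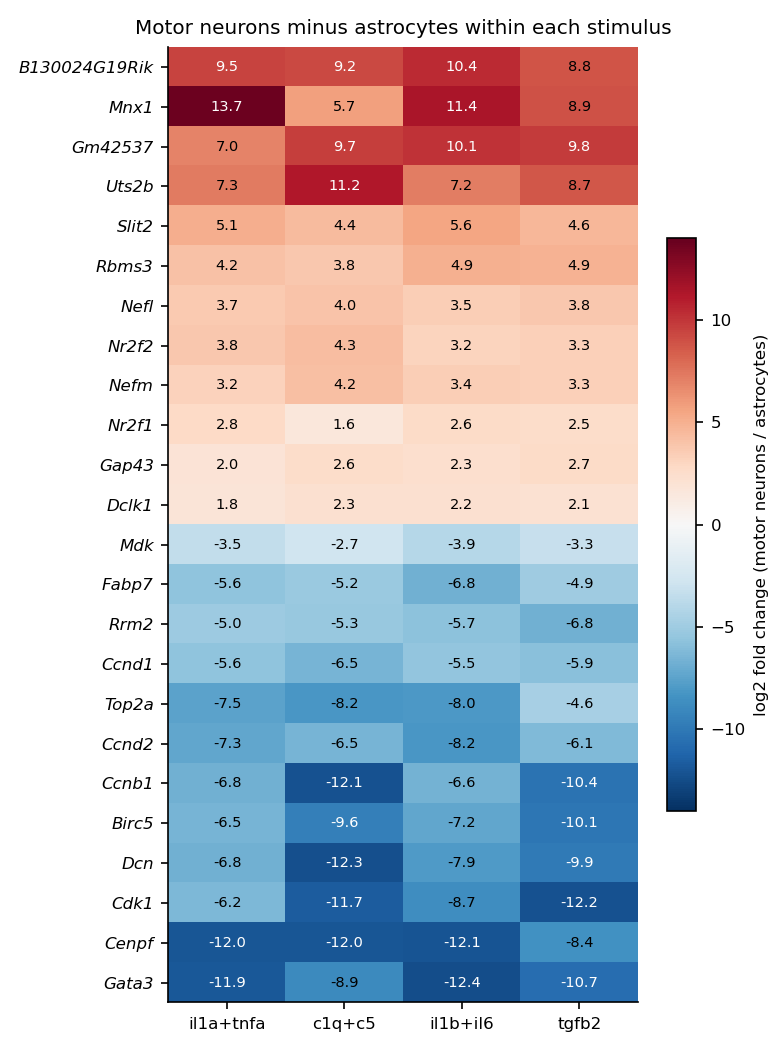
Log2 fold change of 24 genes, ES-motor neurons over ES-astrocytes, within each of the 4 stimuli, 1 row a gene and 1 column a stimulus, red for higher and blue for lower in ES-motor neurons. The genes are those of smallest p in each direction over the same samples. Each has the same sign after all 4 stimuli, which follows in part from that choice, and the extreme values rest on groups with few or no counts.

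A test of dependence on the stimulus, over the 3 interaction terms, called 1 gene (0.008%), while 663 had an unadjusted p under 0.05. This was Mnx1 (adjusted p = 0.023), whose log2 difference was 13.73 after il1a+tnfa, 5.73 after c1q+c5, 11.40 after il1b+il6 and 8.92 after tgfb2. In ES-motor neurons its mean was 1651 ± 1666 CPM (SD, n = 4), 479.7 ± 167, 1157 ± 1133 and 923 ± 632 in that order. In ES-astrocytes it was 0.0388 ± 0.0775, 8.01 ± 7.37, 0.794 ± 1.44 and 1.90 ± 0.660 CPM. The ES-astrocyte levels thus differed by a greater factor than those of ES-motor neurons, and they rest on 2 counts after il1a+tnfa and 7 after il1b+il6. With limma-voom or with each co-culture as a block no gene was called, and in 8 of 32 fits that left out 1 sample none was. The next genes by p were Tppp3 and Pbk (adjusted p = 0.0508 for both), Top2a (0.115), Gm43126 (0.187) and Slx4 (0.434), none of which was called.

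The control co-cultures, which got no stimulus, give the same comparison in other samples, 4 of each cell type. There 228 of 10199 tested genes were called (2.24%), 58 higher and 170 lower in ES-motor neurons. All 228 were tested in the stimulated samples, and 209 of them were called in the same direction there, which is 91.7% of the control calls and 13.6% of the stimulated calls. None was called in the other direction. Of the stimulated calls 1095 were tested in the controls, and 1076 had the same sign (98.3%, beside 70.7% of all genes tested in both). The comparisons share no sample, but the letters may stand for the same vials of cells. In the control samples the log2 differences were 7.50 for Mnx1, 3.89 for Nefl, 4.66 for Slit2, -6.39 for Fabp7, -5.22 for Cenpf and -7.25 for Gata3. The number of control calls depended on the fit and on single samples, at 41 with the replicate letter as a block, 72 without motorneuron control B and 401 without astrocyte control A.

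**Figure D5:**
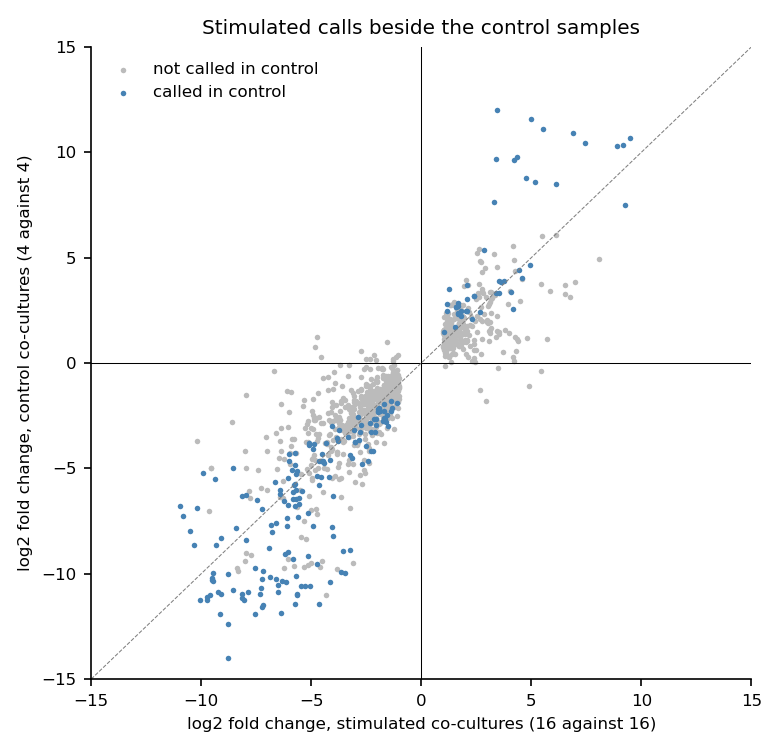
Log2 fold change, ES-motor neurons over ES-astrocytes, in the control co-cultures against that in the stimulated co-cultures, for the genes called in the stimulated comparison that were also tested in the controls. Of these 1095 genes 1076 lie in the quadrants of equal sign.

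A direct test of the stimulated against the control difference, over all 40 samples, called 1 gene of 13227 (0.00756%), while 585 had an unadjusted p under 0.05. This was Cenpf, whose difference was more negative in the stimulated samples by -6.08 (adjusted p = 0.045). Its mean in ES-motor neurons was 3.31 ± 4.31 CPM (SD, n = 4) in the control and 0.0214 ± 0.0858 (n = 16) in the stimulated samples, and in ES-astrocytes 138 ± 72.2 and 122 ± 40.1 CPM. The call rests on a few counts in ES-motor neurons, 2 of 4 control samples having any, and it was lost with limma-voom, with either block, without robust dispersion and without the shallow samples, and in 27 of 40 fits that left out 1 sample no gene was called. The next genes by p were Rfx4, Gm14005, Stx3, Cdk1 and Spock3, none of which was called. Stx3, a syntaxin, was at a mean of 16.4 ± 12.6 CPM in control and 3.35 ± 4.49 CPM in stimulated ES-motor neurons, and at 0.0268 ± 0.0536 and 9.23 ± 9.52 CPM in ES-astrocytes.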

How the data were processed

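RNA of 40 samples of about 200 sorted cells was sequenced by the authors after oligo-dT priming, template switching and Tn5 tagmentation, and reads were mapped with STAR. The deposited values are whole-number counts per Ensembl gene, not normalized, with replicates kept apart. Counting tool, strand setting, build and annotation were not given in the sources used here, and no molecular identifiers are named, so that intervals and limits of a count of 0 (3 counts over a group) cover counting error only. Of 55487 genes, 55227 took a symbol from GENCODE M21.

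All 32 stimulated samples were fitted with edgeR 4.0.16 in R 4.3.3 (filterByExpr on 8 groups, TMM, robust glmQLFit, stimulus plus cell type), with 8 group means for the contrasts within stimuli. Controls entered only their own fit and the test against them. Alternatives used DESeq2 1.42.0, limma 3.58.1, RLE, other filters, blocks, left-out samples and other thresholds. The code was tested on simulated counts. Named are the 12 genes of smallest p in each direction, the 6 of largest fold in each direction with at least 20 CPM in the higher cell type, the leading or contrary members of 40 hand-written lists, the genes that the study names for its control samples, and the 6 leading genes of the other tests. Some genes under this rule are not reported here. The comparison and the lists were chosen with earlier results of these data known. Python 3.11.15, pandas 2.3.3 and matplotlib 3.10.9 made tables and plots.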

Additional observations from a re-analysis of the deposited data

Results flagged for a closer look

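Values of Mnx1, Saa3 and Ccl5 and the total counts were compared among the 4 samples of each stimulated group, 23 groups in all in which the samples differed. In 9 of them 1 sample lay apart by Dixon's test at the 95% level, which chance gives in about 1 of 20 groups of normally distributed values without ties. CPM and totals were compared without a log scale, and each sample apart was the highest of its group, so that this rate may not hold here. In 4 of the 9 the other 3 samples had no count, so that a single counted sample had to lie apart. For Mnx1, the sample apart was astrocyte il1a+tnfa A at 0.155 CPM, the other 3 having no count, astrocyte il1b+il6 D at 2.95 CPM, motorneuron il1b+il6 A at 2836 CPM, with the others between 439 and 837 CPM, and motorneuron tgfb2 B at 1866 CPM, with the others between 538 and 684 CPM. For Saa3 it was motorneuron il1a+tnfa B at 4.51 CPM, motorneuron tgfb2 B at 0.267 CPM and astrocyte c1q+c5 D at 13.3 CPM, each in a group whose other samples had no count. The total count of astrocyte il1a+tnfa A was 14831839 and that of motorneuron tgfb2 B was 12606121, both far above the rest of their groups, and motorneuron il1b+il6 A held 14329617.

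The difference between the cell types depended on the stimulus for Mnx1 (edgeR quasi-likelihood test of the interaction, adjusted p = 0.0230), and it was larger in stimulated than in control co-cultures for Cenpf, by -6.08 on the log2 scale (edgeR quasi-likelihood test, adjusted p = 0.045). The part of depth in either was not tested.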

How the results depend on the processing

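Calls over the 4 stimuli (1536) ranged from 996 with the stricter filter (50 counts in 8 samples, 701 lower) to 2307 with limma-voom (1556 higher), and those higher were 757 with no filter and 281 without tgfb2. Of the 1536, DESeq2 shared 79.0%, limma-voom 68.4% and the fit without shallow samples 69.7%. Leaving out 1 sample gave 1567 to 1745 calls (381 to 463 higher, 1141 to 1337 lower) among 13033 to 13166 tested genes, since the filter then asks for fewer samples. Of the 1536, 1211 were called in all 32 such fits, and none changed sign.

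Within stimuli, DESeq2 called 358 (il1a+tnfa), 529 (c1q+c5), 552 (il1b+il6) and 544 (tgfb2), and limma-voom 408 (il1a+tnfa), 522 (c1q+c5) and 623 (tgfb2). Without shallow samples 25 (il1a+tnfa) and 204 (il1b+il6) were called, and at an adjusted p of at most 0.1 454 (c1q+c5) and 563 (il1b+il6). Leaving out 1 sample gave 155 to 255, 194 to 324, 225 to 388 and 256 to 358 in the order of stimuli above, lowest for c1q+c5 without motorneuron c1q+c5 D and for il1b+il6 without motorneuron il1b+il6 C. A group left with 1 sample was assumed to vary like the others.

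Dependence on the stimulus gave 4 calls with DESeq2, 3 with RLE, 4 with no filter, 0 with limma-voom, 3 at an adjusted p of at most 0.1 and 0 to 6 without 1 sample. The stimulated against control test gave 3 calls with DESeq2, 0 with limma-voom, 0 without robust dispersion, 0 without shallow samples and 0 to 6 without 1 sample. Control calls were 763 with DESeq2, 20 with the stricter filter, 464 with limma-voom, 345 at an adjusted p of at most 0.1 and 72 to 401 without 1 sample.

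Both cell types were sorted out of co-cultures, and the main fit used no replicate block. The values showed no clear pairing by letter, but with shallow ES-motor neuron samples among them they cannot show that pairing is absent. Correlations between the deviations of the cell types with the same letter and stimulus ran from -0.28 to 0.19, and 3 of 16 ES-motor neuron samples were closest to their own letter. With the letter as a replicate block 1588 genes were called, 41 in the controls and 0 in the stimulated against control test. With each co-culture as a replicate block 1341 genes were called, 146, 155 and 211 within il1a+tnfa, c1q+c5 and il1b+il6, and 0 in both tests of differences.

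Of 202 named genes in 16 settings, limma-voom reversed Ccl7 (0.51), C3 (0.83), Ccl20 (0.063), Egln3 (0.19), Abca1 (0.96) and Dnah11 (0.083), while 120 other values lost their call and 24 gained one. The causes were not tested. With no size factor, an alternative chosen after seeing the data, the medians of the motor neuron markers kept their order. Depth limits low genes in ES-motor neurons, where 3 counts over the group are 0.0727 CPM.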
